A study of Rattus norvegicus with 32 samples.

Results

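The GABAergic interneuron genes examined here are 10 transcripts of inhibitory neurons, chosen by symbol from the deposited table of read counts of the rat hippocampus. They are Gad1 (ENSRNOG00000000007), Gad2 (ENSRNOG00000018200), Slc32a1 (ENSRNOG00000015393), Pvalb (ENSRNOG00000006471), Sst (ENSRNOG00000001837), Vip (ENSRNOG00000018808), Npy (ENSRNOG00000046449), Cck (ENSRNOG00000019321), Reln (ENSRNOG00000021441) and Lhx6 (ENSRNOG00000005996). All 10 were among the 32883 genes of the table, and all 10 had enough counts to be tested. Each of the 32 libraries came from 1 hippocampus of a separate wild-type rat pup. Iron-deficient (ID) pups had dams fed a purified diet with 3 to 6 ppm iron from gestational day 3 to postnatal day 7, and iron-sufficient (IS) pups did not. Intranasal insulin was given every day from postnatal day 8 to 21 to the pups called IS insulin and ID insulin, while those called IS control and ID control are labelled control with no vehicle named. IS control and ID insulin hold 8 libraries each, ID control 9 and IS insulin 7. The labels name postnatal day 7 or 21 for collection without assigning a day to a sample. Insulin-treated pups must have been collected on the later day, and for control pups age and treatment cannot be told apart from the labels. Strain, sex and litter are not given, so each p-value rests on the pup-to-pup spread alone, whatever its source.

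In the hippocampus, GABAergic interneurons are a minority of the neurons and set the timing and gain of the excitatory cells. They make the transmitter GABA from glutamate with 2 glutamate decarboxylases, GAD67 (Gad1) and GAD65 (Gad2), and load it into vesicles with the transporter VGAT (Slc32a1). Lhx6 is the transcription factor that specifies the cells born in the medial ganglionic eminence, which mature into the fast-spiking cells with the calcium buffer parvalbumin (Pvalb) and the dendrite-targeting cells with the peptide somatostatin (Sst). Vasoactive intestinal peptide (Vip) marks cells that mainly inhibit other interneurons. Neuropeptide Y (Npy), cholecystokinin (Cck) and reelin (Reln, a secreted glycoprotein that guides layering and later tunes synapses) mark further, partly overlapping types, and Cck and Reln are also made by cells that are not GABAergic. In tissue RNA, fewer cells of a type and less RNA per cell cannot be told apart.

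Library totals were between 19619345 and 28062630 counts. Markers of hippocampal excitatory neurons were high in every library, with 8 genes summing to between 3552 and 5759 CPM (a gene's counts scaled to a common library size, not to gene length). Some ID insulin libraries carried more transcripts of neighbouring tissue. The 8 hypothalamic peptide genes summed to 201.9 CPM in ID insulin replicate 8 and to at most 14.32 CPM in the other 7 of its group. Their highest sum was 5.769 CPM in IS control, 5.515 CPM in ID control and 7.625 CPM in IS insulin. ID insulin replicates 5 and 3, at 14.32 and 9.428 CPM, also lay above these. Thalamus and habenula genes summed to 539.9 CPM in ID insulin replicate 5, against 121.2 to 279.4 CPM in the others of its group. ID insulin replicate 3 had the lowest sum of excitatory markers, 3552 CPM. As a group, ID insulin had 3 of 3 tested blood genes called higher than ID control and than IS control (median log2 fold change 1.15 and 1.33), and 2 of 8 excitatory genes (Wfs1 and Nrgn) called lower than ID control. Of the 5 hypothalamic genes tested, 3 were called higher in ID insulin than in ID control and than in IS control. Against ID control 3.82% of all genes were called in either direction, and against IS control 3.35%. Choroid plexus markers ranged from 16.77 to 5979 CPM over all libraries. The part of these tissues in the members' ID insulin levels was not tested beyond the covariate fits given with single genes. The first number of the sample titles is 71 for IS control, 72 for IS insulin and 73 for ID insulin. ID control holds 5 libraries of number 69 and 4 of number 70. No number is shared between groups, so a difference between groups cannot be told apart from one between these numbers. Inside ID control alone, numbers can be compared within a group.

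Promoters are shown for the genes that the comparisons turn on: Gad2 and Slc32a1, which had the higher means with insulin in ID pups, Pvalb and Vip, which had the lower means and varied together between pups, and Sst, whose group means lay within 103 to 105 CPM. Each sequence is the 300 bases from 250 before to 50 after the gene's start in RefSeq (GRCr8), which matched 9 of the 10 genes. Capitals mark TGACG, the core of the cAMP response element, and the TATA sequence TATAAA, both searched on either strand like the other motifs.
Gad2, chr17:89671468-89671767, GRCr8, plus strand: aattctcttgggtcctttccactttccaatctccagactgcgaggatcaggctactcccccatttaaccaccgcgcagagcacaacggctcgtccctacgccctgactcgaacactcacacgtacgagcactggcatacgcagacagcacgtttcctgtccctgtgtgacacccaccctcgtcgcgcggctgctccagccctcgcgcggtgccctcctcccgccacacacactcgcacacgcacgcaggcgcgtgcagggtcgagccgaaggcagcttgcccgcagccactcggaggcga
Slc32a1, chr3:167686995-167687294, GRCr8, plus strand: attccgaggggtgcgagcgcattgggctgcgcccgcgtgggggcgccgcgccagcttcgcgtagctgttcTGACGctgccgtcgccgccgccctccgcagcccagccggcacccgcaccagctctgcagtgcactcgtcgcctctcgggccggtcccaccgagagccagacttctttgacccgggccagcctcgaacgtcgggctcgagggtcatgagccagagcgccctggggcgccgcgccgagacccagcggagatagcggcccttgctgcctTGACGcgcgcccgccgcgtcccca
Pvalb, chr7:111666240-111666539, GRCr8, minus strand: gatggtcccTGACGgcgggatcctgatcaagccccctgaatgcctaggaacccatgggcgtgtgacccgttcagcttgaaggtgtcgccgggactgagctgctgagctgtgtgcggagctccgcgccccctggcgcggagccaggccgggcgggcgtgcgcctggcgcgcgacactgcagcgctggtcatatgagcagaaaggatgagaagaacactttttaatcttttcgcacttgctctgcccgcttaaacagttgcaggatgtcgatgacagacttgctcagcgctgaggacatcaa
Vip, chr1:44470230-44470529, GRCr8, plus strand: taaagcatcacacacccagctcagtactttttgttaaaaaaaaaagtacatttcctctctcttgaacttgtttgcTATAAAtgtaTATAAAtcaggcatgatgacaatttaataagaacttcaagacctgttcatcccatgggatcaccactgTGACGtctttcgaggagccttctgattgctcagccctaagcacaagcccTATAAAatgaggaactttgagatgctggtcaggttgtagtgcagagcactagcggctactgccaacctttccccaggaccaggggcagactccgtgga
Sst, chr11:90461296-90461595, GRCr8, plus strand: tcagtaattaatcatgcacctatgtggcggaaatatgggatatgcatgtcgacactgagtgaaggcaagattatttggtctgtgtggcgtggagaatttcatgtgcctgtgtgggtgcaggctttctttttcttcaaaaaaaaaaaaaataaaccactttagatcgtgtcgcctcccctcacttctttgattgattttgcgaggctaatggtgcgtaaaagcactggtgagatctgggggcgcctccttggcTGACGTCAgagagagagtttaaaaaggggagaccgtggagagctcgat
The core TGACG, present on at least 1 strand in 21.2% of 33469 rat promoters of this length, had 2 matches in Slc32a1, 1 in Pvalb, 1 in Vip and, as 2 overlapping matches within the full palindrome TGACGTCA, 2 in Sst. The full palindrome was found in 1.83% of promoters and among the 9 genes only in Sst. TATAAA, found in 14.2% of promoters, had 3 matches in Vip and 1 in Gad1. The homeobox core TAATTA (5.36% of promoters) matched only Sst among the 9. The E-box CANNTG, present in 72.1% of promoters, had 3 matches in Pvalb and 1 each in Gad1, Sst, Reln and Lhx6. The Gad2 and Slc32a1 windows held 63.7% and 73.7% G and C, and those of Vip and Sst 44% and 45.7%. These matches describe letters in the windows and say nothing of factor binding.

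No member was called in any comparison (adjusted p under 0.05, edgeR quasi-likelihood test over all genes tested). Without insulin, ID control and IS control gave 0 of 10 members called, against 0.291% of all genes, and 0 of 10 with an unadjusted p under 0.05, against 11.9% of all genes. Insulin in ID pups (ID insulin against ID control) gave 0 of 10 called (3.82% of all genes), and 4 of 10 had an unadjusted p under 0.05 (19.5% of all genes): Gad2 and Slc32a1 with higher means, Pvalb and Vip with lower ones. Insulin in IS pups gave 0 of 10 called (0.123% of all genes) and 0 of 10 by unadjusted p (16.3%). Between the insulin-treated groups (ID insulin against IS insulin) 0 of 10 were called (2.45% of all genes) and 5 of 10 had an unadjusted p under 0.05 (20.1%), the same 4 genes in the same directions and Reln with a higher mean. ID insulin against IS control gave 0 of 10 called (3.35%) and 0 of 10 by unadjusted p (20.3%). In the interaction, which tests whether insulin acted differently in the 2 diets, 0 of 10 were called (0.939%) and 5 of 10 had an unadjusted p under 0.05 (17.1%). The median size of the members' interaction estimates was 0.31 on the log2 scale, beside 0.13 over all genes tested. The comparisons share libraries, so the same animals stand behind several of these counts. Without ID insulin replicate 8, and without ID insulin replicates 3 and 5, 0 members were called in each of these 6 comparisons. Without ID insulin replicate 1, 2 members (Pvalb and Vip) were called lower in ID insulin than in IS insulin and 1 (Vip) in the interaction. The share of all genes called in these reduced fits is not given here, so these counts have no such share to be read against.

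**Figure D1:**
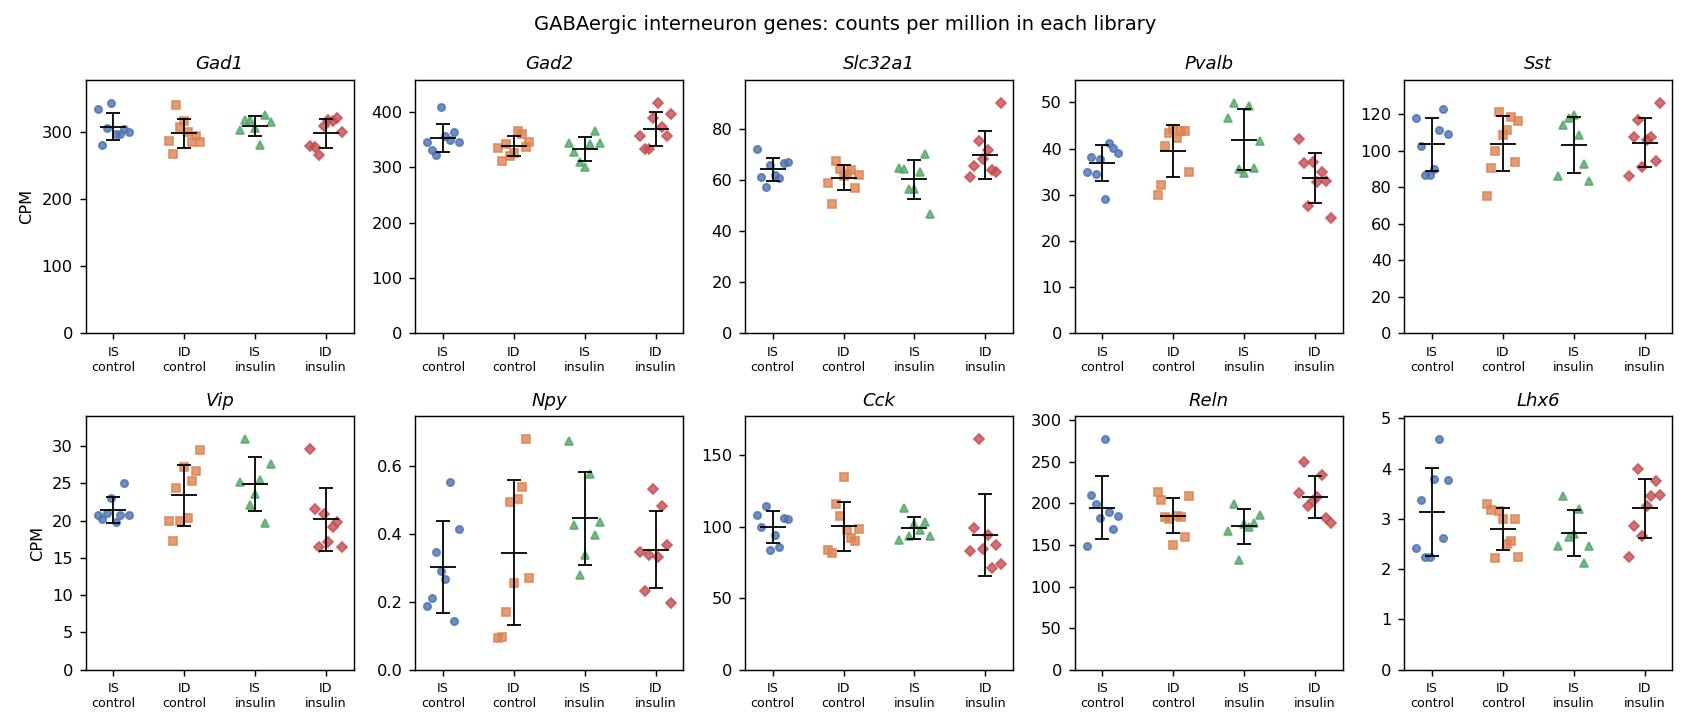
CPM of the 10 genes (vertical axes, each starting at 0) in every library, by group; each symbol is 1 pup, and bars give the mean and SD. Groups overlap in every panel; in ID insulin, 1 pup stands high for Slc32a1 (90.3 CPM), 1 for Cck (161 CPM) and 1 for Vip (29.6 CPM).

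Gad1, which encodes the decarboxylase that supplies most GABA in the cell body, was level across groups. Among iron-sufficient pups its mean was 307.5 ± 20.6 CPM without insulin and 309 ± 14.7 CPM with it (SD, n = 8 and 7). Iron-deficient pups averaged 297 ± 21.4 CPM without and 298 ± 21.4 CPM with insulin (SD, n = 9 and 8). Single libraries lay between 265 and 343 CPM, and all groups overlapped. The interval of the insulin effect in ID pups was narrow: the log2 fold change was 0.0019 with a 95% interval of -0.09 to 0.10, or 0.938-fold to 1.07-fold. The difference between ID control and IS control was -0.05 (SE 0.05, adjusted p = 0.728).

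Gad2, whose product GAD65 sits on synaptic vesicles, ranged from 323 to 409 CPM in IS control (median 348) and from 311 to 367 CPM in ID control (median 337). The range was 301 to 366 CPM in IS insulin (median 342) and 333 to 417 CPM in ID insulin (median 365). ID insulin thus had the highest median, and 4 of its 8 libraries lay above every IS insulin library and 4 above every ID control library, with overlap in both cases. The log2 fold change was 0.13 for insulin in ID pups (SE 0.05, adjusted p = 0.141) and -0.08 for insulin in IS pups (SE 0.05, adjusted p = 0.431). Within ID control itself, title number 70 against 69 gave a Gad2 log2 difference of 0.11 (SE 0.04, edgeR unadjusted p = 0.0296, adjusted p = 0.496). ID insulin against IS insulin gave 0.15 (SE 0.05, adjusted p = 0.104), and the interaction was 0.21 (95% interval 0.07 to 0.35, unadjusted p = 0.00572, adjusted p = 0.118). The ratio of Gad2 to Gad1 counts, which does not depend on library size, averaged 1.24 ± 0.0706 in ID insulin and 1.08 ± 0.089 in IS insulin, with 1.15 ± 0.0652 in IS control and 1.14 ± 0.0942 in ID control (SD). Ratios of single ID insulin libraries ran from 1.12 to 1.32 and overlapped those of the other groups. The highest Gad2 value, 417 CPM, was in ID insulin replicate 5, the library with the highest sum of thalamus and habenula markers, and within groups Gad2 went with that list at r = 0.448 over 32 libraries. With microglia markers the r of Gad2 was larger in size, at -0.47. Without replicate 5 the Gad2 estimate was 0.10 for insulin in ID pups (adjusted p = 0.266), 0.12 between the insulin groups (adjusted p = 0.206) and 0.18 in the interaction (adjusted p = 0.182).

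Slc32a1, the vesicular GABA transporter gene, had a median of 63.8 CPM in IS control (57.4 to 72.2 CPM) and 63.0 CPM in IS insulin (46.6 to 70.1 CPM). The median was 62.2 CPM in ID control (50.8 to 67.5 CPM) and 67.0 CPM in ID insulin (61.0 to 90.3 CPM). The groups overlapped, and the highest value belonged to ID insulin replicate 8. Insulin in ID pups gave a log2 fold change of 0.20 (SE 0.07, adjusted p = 0.112) and insulin in IS pups one of -0.09 (SE 0.08, adjusted p = 0.603). The interaction was 0.29 (95% interval 0.07 to 0.50, adjusted p = 0.147). Without ID insulin replicate 8 the estimate in ID pups was 0.14 (adjusted p = 0.247) and the interaction 0.23 (adjusted p = 0.195). Replicate 8 held 117.5 CPM of Pmch (melanin-concentrating hormone precursor), 24.05 of Avp (vasopressin), 22.06 of Trh (thyrotropin-releasing hormone), 14.37 of Oxt (oxytocin), 10.11 of Pomc (opiomelanocortin precursor), 9.954 of Hcrt (orexin precursor), 2.811 of Agrp (agouti-related peptide) and 1.015 of Ghrh (growth hormone-releasing hormone). In the other 7 ID insulin libraries Pmch was between 0.0461 and 1.36 CPM and Avp between 0.0461 and 0.517 CPM. The mean log2 CPM of the detected hypothalamic genes went with Slc32a1 within groups at r = 0.588 over 32 libraries and r = 0.36 over 31 without replicate 8, and with Gad2 at r = 0.186 and r = -0.0206. With neocortex and entorhinal cortex markers the r of Slc32a1 was -0.454, and -0.483 without replicate 8, larger in size than 0.36. Over 32 libraries its r was 0.411 with striatal projection neuron markers, -0.395 with hippocampal excitatory markers and 0.394 with Cajal-Retzius markers. With the hypothalamus list as a covariate (an alternative chosen after the data were seen), the Slc32a1 estimate in ID pups was 0.09 (adjusted p = 0.475) and in the interaction 0.17 (adjusted p = 0.351). How far transcripts of neighbouring tissue enter the Slc32a1 level beyond this was not tested.

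**Figure D2:**
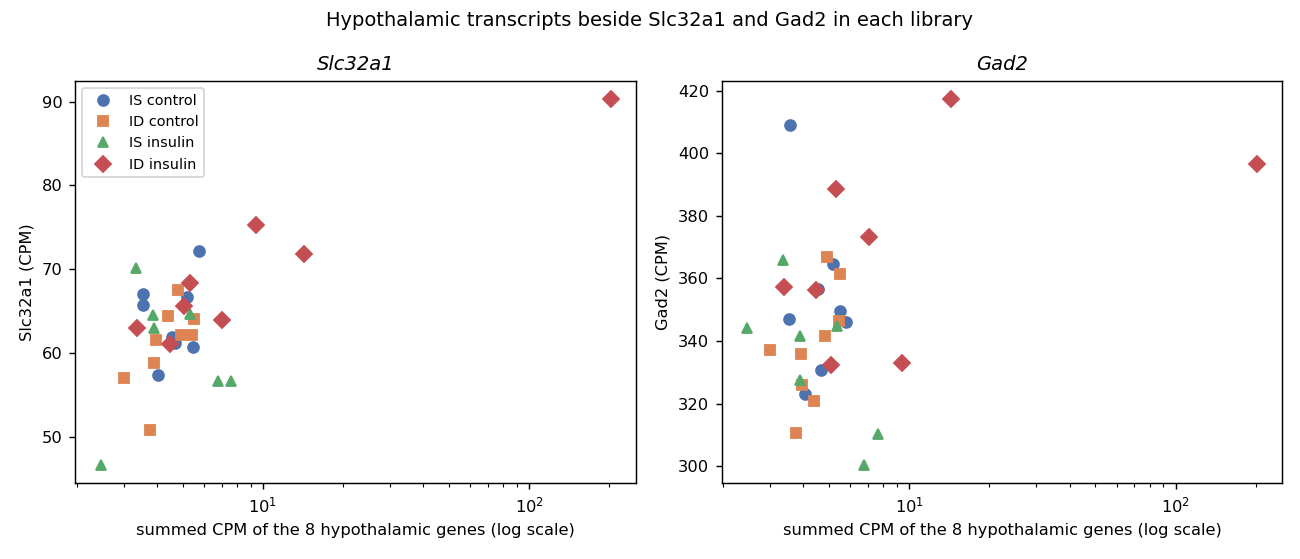
Slc32a1 (left) and Gad2 (right) in CPM on the vertical axes against the summed CPM of the 8 hypothalamic peptide genes (log axis); each symbol is 1 library, shaped by group. ID insulin replicate 8 lies alone at 201.9 CPM with the highest Slc32a1 (90.3 CPM), while the highest Gad2 value (417 CPM) lies at 14.32 CPM of hypothalamic transcripts, in ID insulin replicate 5, which has the highest thalamus and habenula sum (539.9 CPM).

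Pvalb, the parvalbumin gene of fast-spiking basket and chandelier cells, had a median of 38.0 CPM in IS control (29.0 to 41.2 CPM) and 41.7 CPM in IS insulin (34.7 to 49.9 CPM). The median was 42.3 CPM in ID control (29.9 to 44.3 CPM) and 34.0 CPM in ID insulin (24.9 to 42.0 CPM). ID insulin had the lowest median, and 4 of its 8 libraries lay below every IS insulin library. The log2 fold change of ID insulin against IS insulin was -0.32 (0.803-fold, 95% interval 0.694 to 0.929, unadjusted p = 0.00439, adjusted p = 0.0825), the member closest to the threshold. DESeq2 called this difference (log2 fold change -0.32, adjusted p = 0.0494), as did edgeR without ID insulin replicate 1 (-0.37, adjusted p = 0.042). Insulin in ID pups gave -0.23 (SE 0.10, adjusted p = 0.182) and in IS pups 0.19 (SE 0.10, adjusted p = 0.373), and the interaction was -0.42 (95% interval -0.71 to -0.13, adjusted p = 0.122). ID control and IS control differed by 0.10 (SE 0.10, adjusted p = 0.735). The lowest Pvalb value of all, 24.9 CPM, was in ID insulin replicate 8, the library with the hypothalamic transcripts, and the next lowest, 27.6 CPM, in replicate 3. Without replicate 8 the difference between the insulin groups was -0.26 (adjusted p = 0.163), and with the hypothalamus list as a covariate -0.20 (adjusted p = 0.355). Within groups Pvalb went with that list at r = -0.442, and at r = -0.229 without replicate 8. Over all libraries its r was close to -0.442 with markers of striatal projection neurons (-0.438), astrocytes (-0.429) and Cajal-Retzius cells (-0.424). Its highest positive r was 0.217, with markers of hippocampal excitatory neurons.

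Vip, the peptide gene of interneurons that contact other interneurons, had the same order of group means as Pvalb. Its median was 20.7 CPM in IS control (19.8 to 25.1 CPM) and 25.2 CPM in IS insulin (19.7 to 30.9 CPM). In ID control it was 24.4 CPM (17.3 to 29.5 CPM) and in ID insulin 19.5 CPM (16.5 to 29.6 CPM). In ID insulin, replicate 1 had 29.6 CPM and the other 7 had 16.5 to 21.6 CPM, so that 4 libraries lay below every IS insulin library while 1 lay near the top of that group. ID insulin against IS insulin gave a log2 fold change of -0.31 (SE 0.11, unadjusted p = 0.00951, adjusted p = 0.115), and the interaction was -0.44 (95% interval -0.75 to -0.12, adjusted p = 0.133). Without replicate 1 both passed: -0.40 (adjusted p = 0.0253) between the insulin groups and -0.53 (adjusted p = 0.0474) in the interaction. That library also had the highest sum of neocortex and entorhinal cortex markers in its group, 295.7 CPM against 168.7 to 245.5 CPM in the other 7. The sum includes Lamp5, also an interneuron marker, at 76.88 CPM in that library and 28.6 to 48.9 CPM in the other 7. Across libraries this marker list, Lamp5 included, went with Vip within groups at r = 0.549, and at r = 0.406 without ID insulin replicate 1. Its part in the Vip level was not tested. Insulin in ID pups gave -0.22 (adjusted p = 0.248) and in IS pups 0.22 (adjusted p = 0.33).

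Sst, Cck and Npy, the other peptide genes, showed no difference that passed the test. Sst means were within 103 to 105 CPM in all groups (SD from 13.5 to 15.4 CPM), while single libraries ran from 75.5 to 126 CPM. Within groups Sst went with the hypothalamus list at r = 0.452, and at r = 0.492 without ID insulin replicate 8. The insulin effect on Sst was 0.0077 in ID pups (95% interval -0.19 to 0.20) and -0.0029 in IS pups (-0.21 to 0.20). Cck, which some excitatory neurons also express, averaged 99.8 ± 11.1 CPM in IS control and 99.0 ± 7.60 CPM in IS insulin (SD). Its mean was 100.2 ± 16.9 CPM in ID control and 94.3 ± 28.5 CPM in ID insulin (SD). The larger SD of ID insulin came with 1 library, replicate 3, at 161 CPM, the others lying between 71.3 and 98.8 CPM. Insulin in ID pups gave a Cck log2 fold change of -0.09 (adjusted p = 0.712), and -0.24 (adjusted p = 0.105) without replicate 3, the library with the lowest sum of excitatory markers. Npy had only 2 to 16 counts per library (0.0931 to 0.677 CPM), which makes its estimates imprecise: insulin in IS pups gave 0.54 with a 95% interval of -0.11 to 1.19, and in ID pups 0.0096 with an interval of -0.61 to 0.63. Whether the deposited row collects all reads of the gene was not tested.

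Reln and Lhx6 had their group means in the same order as Gad2, without a called difference. Reln ranged from 148.5 to 277 CPM in IS control (median 187 CPM) and from 131 to 199 CPM in IS insulin (median 175 CPM). The range was 149.7 to 214 CPM in ID control (median 184 CPM) and 176 to 249.6 CPM in ID insulin (median 205 CPM). Of the 8 ID insulin libraries, 5 lay above every IS insulin library, and the log2 fold change between these groups was 0.27 (SE 0.10, unadjusted p = 0.0101, adjusted p = 0.118). The interaction for Reln was 0.34 (95% interval 0.07 to 0.62, adjusted p = 0.181). Cajal-Retzius cells also make reelin, and 4 of their markers summed to 1.431 to 4.711 CPM in the other groups and to 2.926 to 14.99 CPM in ID insulin, with the highest value in replicate 8. Their mean went with Reln within groups at r = 0.0682. Of the 12 marker lists of other cells and tissues, choroid plexus went most closely with Reln within groups (r = 0.546), and its summed level had a median of 3296 CPM in ID insulin and 1014 CPM in IS insulin. With the levels of the choroid plexus and 3 other lists as covariates, Reln differed between the insulin groups by 0.21 (adjusted p = 0.42) and the interaction was 0.39 (adjusted p = 0.187). Lhx6 had 45 to 100 counts per library, with medians of 3.00 CPM in IS control and 2.63 CPM in IS insulin, and of 2.99 CPM in ID control and 3.35 CPM in ID insulin. Its interaction estimate was 0.40 (95% interval -0.02 to 0.83, adjusted p = 0.319).

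**Figure D3:**
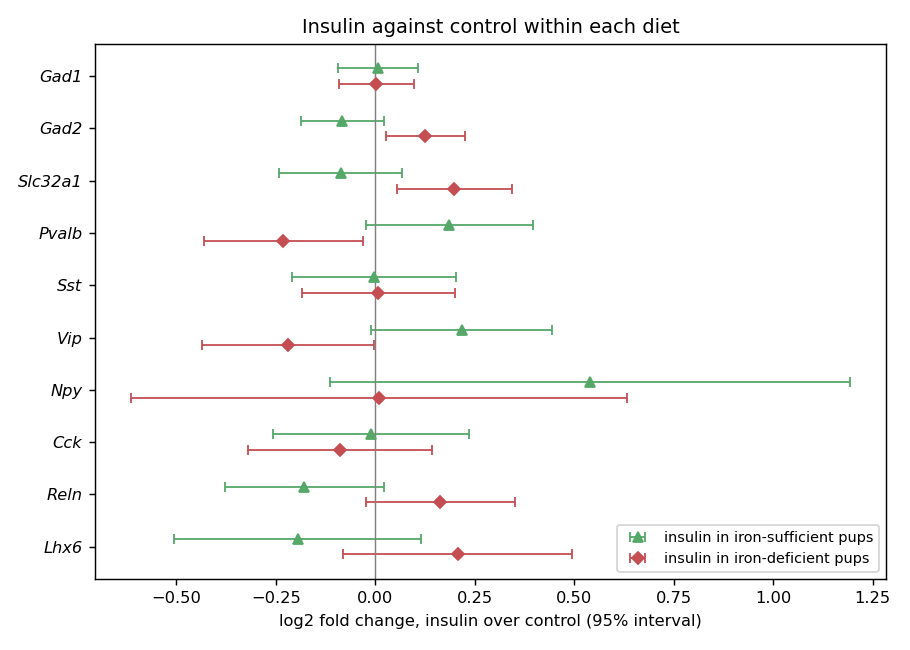
Log2 fold change of insulin over control with its 95% interval (horizontal axis) for each gene, in iron-sufficient pups (triangles) and iron-deficient pups (diamonds). Gad2 and Slc32a1 lie right of 0 in iron-deficient and left in iron-sufficient pups, Pvalb and Vip the other way, and Gad1 and Sst lie near 0 in both.

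Set side by side, the insulin estimates had opposite signs in the 2 diets for 7 of the 10 members (70%), beside 47.8% of all genes tested. Gad2, Slc32a1, Reln, Lhx6 and Sst had positive estimates in ID and negative ones in IS pups, and Pvalb and Vip the reverse. For Sst both values were close to 0. Whether insulin acted differently in the 2 diets is tested by the interaction, which no member passed. Within ID control, libraries of title number 70 against 69 gave 0 of 10 members called (0.220% of 15008 genes) and 2 of 10 with an unadjusted p under 0.05 (8.92% of genes). These were Gad2, at 337 to 367 CPM in the 4 libraries of number 70 against 311 to 342 CPM in the 5 of number 69, and Npy, at 0.269 to 0.677 against 0.0931 to 0.495 CPM.

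Lists of related genes, 6 in all, were read beside the members: GABA metabolism and transport, interneuron transcription factors, fast-spiking interneuron maturation, other interneuron subclass markers, neuropeptide receptors and reelin signalling. They hold 69 genes, of which 64 were in the table and tested. Between ID control and IS control 0 of 64 were called, and with insulin in IS pups also 0 of 64 beside 0.291% and 0.123% of all genes. Unadjusted p-values under 0.05 numbered 4 and 15 of 64 there, beside 11.9% and 16.3% of all genes. Insulin in ID pups gave 1 lower and 0 higher, ID insulin against IS insulin 4 higher and 1 lower, ID insulin against IS control 2 higher, and the interaction 1 lower. The shares of all genes called in these 4 comparisons were 3.82%, 2.45%, 3.35% and 0.939%. Unadjusted p-values under 0.05 numbered 20, 26, 12 and 20 of 64, beside 19.5%, 20.1%, 20.3% and 17.1% of all genes. The median log2 fold change of the 64 in the interaction was 0.12, beside -0.01 over all genes tested. The neuropeptide receptor list had 0 of 10 called in every comparison.

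In the GABA list, Slc6a13 (the GABA transporter GAT2, also a meningeal transcript) was lower with insulin in ID pups, at 17.2 ± 3.05 CPM against 28.7 ± 7.58 CPM (SD). The groups overlapped, and the log2 fold change was -0.74 (SE 0.18, adjusted p = 0.0205). It also stands on the meninges list, which summed to 311.2 to 561.0 CPM in ID insulin and 507.5 to 838.9 CPM in ID control. In that comparison 4 of the 7 tested meninges genes were called lower, Slc6a13 among them, beside 3.82% of all genes called in either direction. Slc6a13 was not called when ID control was limited to the libraries of title number 69 or of number 70. The other 7 genes of the list were not called. The most abundant was Glul (glutamine synthetase of astrocytes), at 1485 ± 130 CPM in IS control and 1401 ± 99.5 in ID insulin (SD), and Slc6a13 was the least abundant, at 23.1 CPM over all libraries.

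Among other subclass markers, Lamp5, a marker of neurogliaform interneurons and of some cortical excitatory neurons, gave the only called interaction among the 64 genes. It ranged from 33.8 to 63.1 CPM in IS control (median 41.5 CPM) and from 46.6 to 87.2 CPM in IS insulin (median 68.0 CPM). The range was 43.6 to 63.8 CPM in ID control (median 53.2 CPM) and 28.6 to 76.9 CPM in ID insulin (median 35.9 CPM). The interaction was -0.99 (SE 0.23, adjusted p = 0.0278) and ID insulin against IS insulin -0.65 (SE 0.17, adjusted p = 0.0317), with 6 of 8 ID insulin libraries below all IS insulin libraries. The interaction was not called in 5 of 32 fits that each left out 1 library (ID insulin replicate 6 or 8, IS control replicate 5, IS insulin replicate 1 or 2), with estimates from -1.18 to -0.90 and an adjusted p of up to 0.0565 over the 32 fits. Among 12 other settings Lamp5 was called in 7, with estimates from -1.03 to -0.81. Lamp5 was also listed among the neocortex and entorhinal cortex markers, whose sum had a median of 206.4 CPM in ID insulin and 250.8 CPM in IS insulin. That sum includes Lamp5 itself, so it is no separate measure of such tissue. The part of such tissue in the Lamp5 level was not tested. On the same list Elfn1 (a synaptic protein of somatostatin cells) was higher in ID insulin than in IS insulin, at 40.1 ± 3.35 against 34.6 ± 2.93 CPM (SD, a log2 difference of 0.21 with adjusted p = 0.0489). Slc17a8 (the glutamate transporter VGLUT3, found in some Cck basket cells) was higher at 7.99 ± 1.22 against 6.15 ± 1.13 CPM (SD, log2 fold change 0.39, adjusted p = 0.0489). The list's most abundant gene, the cannabinoid receptor Cnr1, averaged 471 ± 26.7 CPM in IS control and 408 ± 39.0 in IS insulin (adjusted p = 0.15), and the least abundant, Chodl, averaged 2.27 ± 0.900 CPM in ID insulin and 1.46 ± 0.408 in IS insulin (adjusted p = 0.164).

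In the fast-spiking list, Nxph1 (neurexophilin, a secreted ligand of neurexins) was higher in ID insulin than in IS insulin, at 53.6 ± 2.63 against 47.2 ± 2.14 CPM (SD). Of the ID insulin libraries 7 of 8 lay above all IS insulin libraries, and the log2 fold change was 0.18 (SE 0.05, adjusted p = 0.0272). Tac1 (the substance P precursor) was higher in ID insulin than in IS control, at 13.4 ± 3.27 against 10.3 ± 1.29 CPM (SD, log2 fold change 0.39, adjusted p = 0.0381). ID insulin replicate 8 had 20.84 CPM of Tac1 and the other 7 had 11 to 14.4 CPM. The perineuronal net genes Hapln1 (the list's most abundant, 119 ± 9.94 CPM in IS insulin and 115 ± 19.1 in ID insulin) and Acan (the least abundant, 9.48 ± 1.12 and 11.2 ± 1.82 CPM) were not called. Among transcription factors, Nkx2-1 (which specifies the medial ganglionic eminence and parts of the hypothalamus) was higher in ID insulin than in IS control (log2 fold change 2.22, SE 0.63, adjusted p = 0.0438). Its counts were 0 to 17 in IS control libraries and 3 to 205 in ID insulin, where replicate 8 had 8.002 CPM and the other 7 had 0.149 to 2.26 CPM. Neither Tac1 nor Nkx2-1 was called without replicate 8 (log2 fold changes of 0.25 and 1.08). In the same list the most abundant gene was Etv1 (153 ± 16.7 CPM in IS control and 142 ± 24.7 in ID insulin) and the least abundant Sp8 (0.406 ± 0.230 and 0.711 ± 0.481 CPM), neither called.

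In the reelin list, Crkl (an adaptor downstream of the reelin signal) was higher in ID insulin than in IS insulin, at 9.23 ± 1.40 against 7.62 ± 0.509 CPM (SD), a log2 difference of 0.28 (SE 0.08, adjusted p = 0.049). The other 6 genes were not called, among them Pafah1b1 (Lis1, the most abundant, 947 ± 88.8 against 955 ± 57.7 CPM). Among the receptors the somatostatin receptor Sstr1 was the most abundant (57.5 ± 9.04 CPM in ID insulin and 61.5 ± 5.19 in IS insulin) and the cholecystokinin receptor Cckar the least (0.608 ± 0.510 and 0.323 ± 0.111 CPM). Of the 5 genes called between the insulin groups, 0 were called without ID insulin replicate 8 and 0 without IS insulin replicate 2, and 10 genes of the lists were called without ID insulin replicate 3. With 1 library left out in turn, Lamp5 was called between these groups in 25 of 32 fits, Nxph1 in 27, Slc17a8 in 12, Elfn1 in 8 and Crkl in 6. The interaction gave 0 to 8 called genes of the lists in such fits. The shares of all genes called in the fits with libraries left out are not given here.

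**Figure D4:**
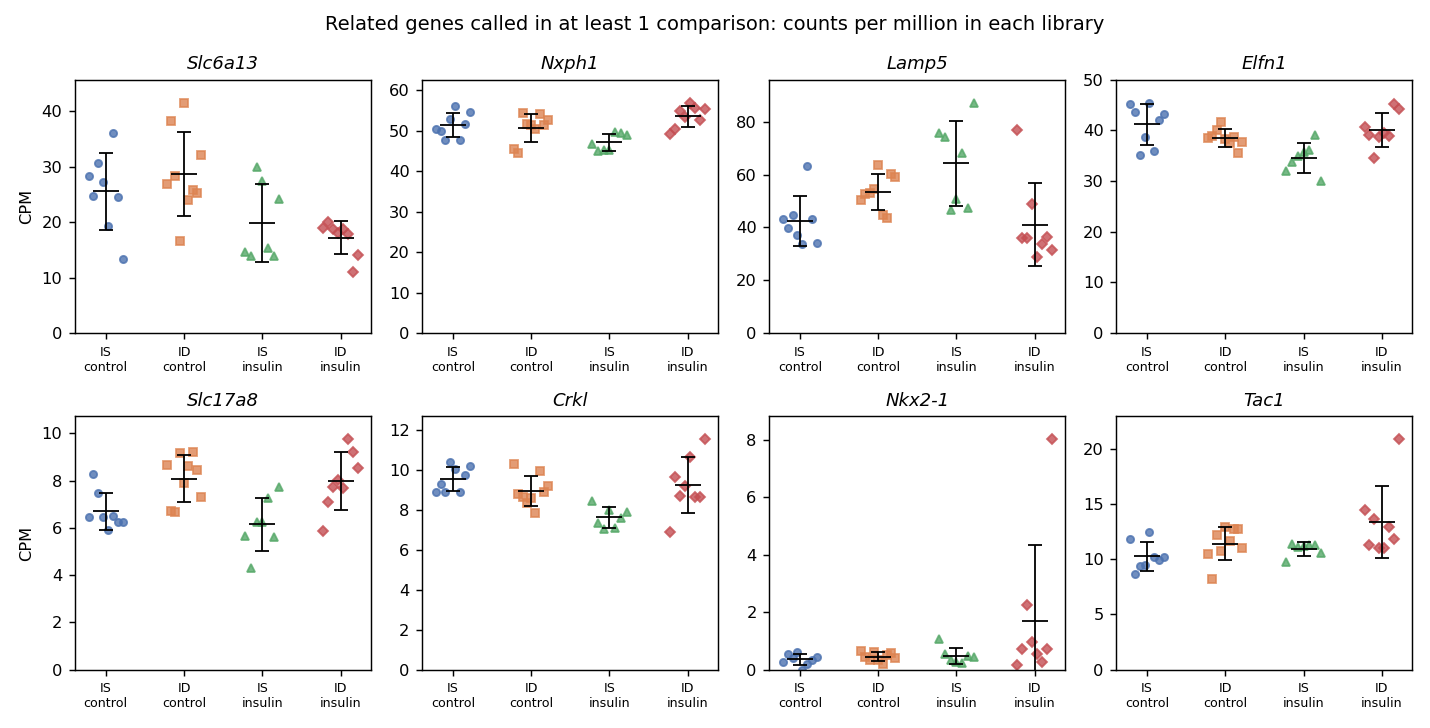
CPM (vertical axes from 0) of the 8 genes of the related lists that were called in at least 1 comparison, by library and group, with mean and SD; the lower SD bar of Nkx2-1 in ID insulin runs below 0 and is cut off there. ID insulin replicate 8 is the high point of Nkx2-1 (8.002 CPM) and Tac1 (20.84 CPM), and for Lamp5 ID insulin replicate 1 (76.88 CPM) lies apart from the other 7.

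How the members varied together between pups of a group was described by correlating group-centred log2 CPM over the 32 libraries, for 45 pairs. After adjustment over the 45 pairs, 2 pairs passed a permutation test (100000 permutations within groups, two-sided). Pvalb and Vip had Pearson r = 0.647 (p = 0.00036, adjusted p = 0.0135) and Spearman rho = 0.657 (p = 0.00018, adjusted p = 0.0081). Without the 2 libraries farthest from the median of Pvalb, r was 0.608, and within IS control, ID control, IS insulin and ID insulin it was 0.475, 0.419, 0.764 and 0.867. Pvalb and Npy had r = 0.576 (permutation p = 0.0006, adjusted p = 0.0135) and rho = 0.573 (permutation p = 0.00098, adjusted p = 0.022), with 0.468 without 2 libraries and 0.165, 0.816, 0.765 and 0.481 within the groups. Npy had only 2 to 16 counts per library. Values were not centred on title number, and within ID control Npy was 2.21-fold higher in number 70 than in 69 (edgeR adjusted p = 0.497). The other 43 pairs did not pass, among them Gad1 and Gad2 (r = 0.436, rho = 0.33, permutation adjusted p = 0.215 and 0.328). Slc32a1 and Sst gave r = 0.487 and rho = 0.444 (permutation adjusted p = 0.0937 and 0.234). All pairs share library preparation and depth, and how often pairs of other genes reach such r was not tested.

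**Figure D5:**
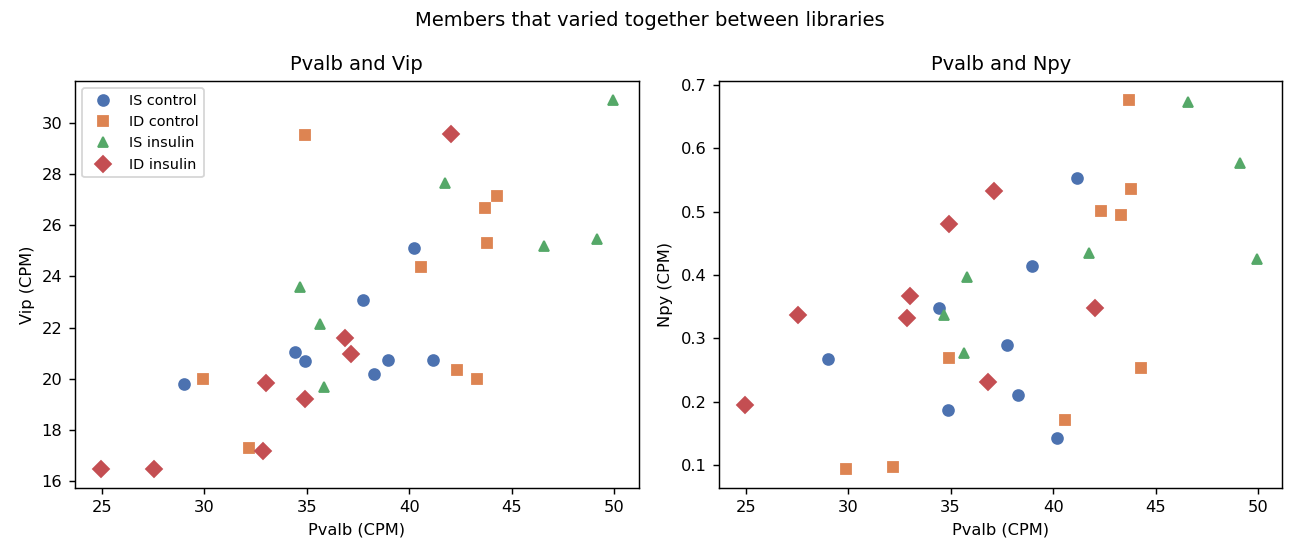
Vip (left) and Npy (right) in CPM against Pvalb in CPM on the horizontal axes; each symbol is 1 library, shaped by group. The 2 ID insulin libraries with the lowest Pvalb also have the lowest Vip of that group (16.5 CPM each), and IS insulin replicate 2 is highest in both Pvalb and Vip.

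The genes most like each member were sought among 11997 other genes (11998 for Npy, which is itself below the level required) by the same correlation over 32 libraries, given as a description. Gad1 was closest to Rnf6 (r = 0.778), Ociad2 (0.753) and Cdk13 (0.712). Gad2 was closest to Zfp804a (0.648), Pafah1b2 (0.628) and Cacul1 (0.609), and Slc32a1 to Ndn (0.732), Nap1l5 (0.722) and Zcchc12 (0.721). For Pvalb these were Cfl1 (0.78), Syndig1 (0.775) and Eif4a2 (0.749), and for Vip they were Ngef (0.815), Ntm (0.797) and Stx1a (0.797). No member was among the 3 closest genes of another member. Sst was closest to Bmyc (0.732), Mrpl28 (0.732) and Vbp1 (0.712), and Npy to Commd10 (0.76), Denr (0.692) and Ggnbp2 (0.64). Cck was closest to Uqcr11 (0.859), Tmem205 (0.854) and Dhrs7b (0.828), with ID insulin replicate 3 far from the rest. Reln was closest to Tbc1d9 (0.769), Yeats2 (0.721) and Dync2h1 (0.718), and Lhx6 to Cchcr1 (0.645), RT1-A2 (0.632) and Fam241a (0.588).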

How the data were processed

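RNA-seq of rat hippocampus was analysed in 32 libraries of 4 groups, named by the diet and treatment labels. The authors deposited 1 table of raw read counts per gene for 32883 genes, with 9663 of them at 0 in all libraries. Per the submitters' processing notes the tools were Trimmomatic 0.40, FastQC, HISAT2 2.1.0, featureCounts and edgeR, and the notes name the builds Rnor_6.0 and mm10 without their roles. Strandedness and counting options are not given in the sources used here, so reads shared by overlapping genes cannot be separated.

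Counts were normalised by TMM and tested with edgeR 4.0.16 (R 4.3.3) by its quasi-likelihood F-test, with 1 coefficient per group over all 32 libraries (28 residual degrees of freedom), after filterByExpr had kept 15439 genes. Tests were two-sided, p-values were adjusted by Benjamini-Hochberg over all genes tested, and a gene was called at an adjusted p under 0.05. SE and 95% intervals are on the log2 scale. The 9 ID control libraries alone were fitted for title numbers 70 and 69 (15008 genes). CPM used TMM-scaled totals and are not per length. Library totals were 19619345 to 28062630 counts, and among the members low counts limit the estimates of Npy and Lhx6 most. Between libraries of a group the chi-square per gene was 5.77 to 102 over 113 pairs, above sampling noise, so no library was counted as a copy. The fits were tested on simulated data.

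Correlations used log2 CPM (prior count 2) centred on group means. Members and lists were chosen with earlier results of these data known. The genes named were all 10 members, from each related list those called plus the most and least abundant, and the 3 genes most like each member among those above a mean log2 CPM of 1. Dlx6, Pthlh, Ndnf, Cort, Vipr1, Trp73, Tac2, Rasgrf2, Col1a2 and Hba1 were not found by symbol in the table and were not analysed here. Alternatives were DESeq2 1.42.0, DESeq2 size factors in edgeR, limma 3.58.1 (voom), other count filters, the compared groups alone, marker-list covariates, title-number subsets, a replicate block and libraries left out. The hypothalamus covariate and edgeR's earlier quasi-likelihood method were added after the data were seen.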

Additional observations from a re-analysis of the deposited data

Results flagged for a closer look

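Samples far from the others of their group were sought for members, called related genes and hypothalamic genes in 104 groups of values, and 18 values were set apart. Chance sets apart about 1 in 20 groups. Most lay in ID insulin replicate 8. It held 117.5 CPM of Pmch (0.0461 to 1.36 in the other 7), 24.05 of Avp (0.0461 to 0.517), 22.06 of Trh (0.529 to 9.63), 14.37 of Oxt (0 to 2.36) and 10.11 of Pomc (0.815 to 3.17). The same library held 9.954 CPM of Hcrt (0.248 to 1.3), 2.811 of Agrp (0.321 to 0.937) and 1.015 of Ghrh (0.0921 to 0.481). Its Tac1 was 20.84 CPM (11 to 14.4) and its Nkx2-1 8.002 CPM (0.149 to 2.26).

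Among the members, Cck was 161 CPM in ID insulin replicate 3 (71.3 to 98.8 in the other 7), and Vip was 29.58 CPM in ID insulin replicate 1 (16.5 to 21.6). Lamp5 was 76.88 CPM in ID insulin replicate 1 (28.6 to 48.9) and 63.09 CPM in IS control replicate 6 (33.8 to 44.7). IS insulin replicate 1 had 1.058 CPM of Nkx2-1 (0.222 to 0.553 in the other 6) and 0.3848 of Ghrh (0.036 to 0.177). Trh was 3.743 CPM in IS insulin replicate 3 (0.488 to 1.01), and Avp was 1.048 CPM in IS control replicate 7 (0.0754 to 0.347).

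The insulin estimate of Lamp5 differed between the diets by the interaction term, -0.9909 on the log2 scale (edgeR adjusted p = 0.0278), with 0.60 in IS pups and -0.39 in ID pups.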

How the results depend on the processing

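With 13 other settings (12 for the interaction, where fitting the compared groups alone was not run), 0 members were called in any of the 6 group comparisons, except that DESeq2 called 1 between ID insulin and IS insulin. Leaving out 1 library gave 0 to 2 called members there and 0 to 1 in the interaction, the higher counts without ID insulin replicate 1. Under the other settings the called genes of the related lists ranged from 0 to 3 with insulin in ID pups, 0 to 2 in IS pups, 0 to 10 between the insulin groups, 0 to 4 for ID insulin against IS control and 0 to 8 in the interaction. The shares of all genes called under these settings and with 1 library left out are not given here. Npy has no value under the stricter filter of 1 CPM in 7 libraries. Low counts limit Npy, at 2 to 16 per library, and whether its row collects all reads of the gene was not tested.

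The signs that turned belong to log2 differences that were not called, apart from Slc6a13, and the cause was not tested. For ID control against IS control, Cck was -0.08009 with title number 70 alone, -0.00957 by limma voom, -0.0385 with the marker-list covariates and -0.04616 with the replicate block. Sst was -0.06748 and Npy -0.4373 with title number 69 alone, and Sst was -0.0007208 with the hypothalamus covariate.

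For insulin in ID pups, Gad1 was -0.02877 with number 69 alone, -0.004637 with the hypothalamus covariate, -0.009056 with the marker-list covariates, -5.869e-05 without a count filter and -0.01763 with the block. Sst was -0.07486 with number 70 alone, -0.02464 without ID insulin replicates 3 and 5, -0.0984 with the hypothalamus covariate, -0.04768 by voom and -0.002543 with the block. Npy was -0.4869 with number 70 alone, -0.1407 with the marker-list covariates and -0.08739 with the block, and Slc6a13 was 0.1481 with the marker-list covariates, which include a meninges list that holds Slc6a13 itself, so that value is no test of it.

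For insulin in IS pups, Gad1 was -0.002138 by voom and -0.0009028 without a count filter, and Sst was 0.005983 with the hypothalamus covariate, 0.002799 by voom and 0.05409 with the marker-list covariates. Between the insulin groups Sst was -0.01319 without replicates 3 and 5, -0.1051 with the hypothalamus covariate and -0.04377 by voom. In the interaction Gad1 was 0.03306 with number 70 alone, 0.005871 without replicates 3 and 5, 0.0205 by voom and 0.0008441 without a count filter. Sst was -0.06685, -0.02187 and -0.05048 in the first 3 of these and -0.1044 with the hypothalamus covariate. Cck was 0.006063 with number 70 alone, and Npy 0.123 with number 69 alone.

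Leaving out 1 library gave, for ID control against IS control, -0.0315 to 0.0494 for Sst, -0.0567 to 0.0326 for Cck and -0.121 to 0.0162 for Reln. For insulin in ID pups it gave -0.0157 to 0.0272 for Gad1, -0.0404 to 0.04294 for Sst and -0.108 to 0.191 for Npy. For insulin in IS pups it gave -0.016 to 0.0285 for Gad1, -0.0414 to 0.0371 for Sst and -0.0486 to 0.0176 for Cck. Between the insulin groups Sst ran from -0.0321 to 0.0573. In the interaction Gad1 ran from -0.0267 to 0.0248 and Sst from -0.0309 to 0.0489.

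On average, same-numbered libraries of different groups did not deviate together (mean r = 0.0119 over 40 pairs, -0.00139 over 343 others). This check gave no sign of pairing by the second title number, and pairing that moves only some genes was not tested. With that number as a replicate block 0 members were called in any of the 6 comparisons. With the block the Lamp5 interaction was -0.95 (edgeR adjusted p = 0.173) and related genes called between the insulin groups numbered 2.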
